A study of Sparus aurata with 6 samples.

Results

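The transcripts described here were the 200 skin sequences of gilthead seabream (Sparus aurata) whose array signal differed most between pools of fish fed the same diet. They were taken from 4288 sequences that fulfilled the conditions for ranking, out of 15156 sequences on the array. A sequence is a cDNA clone or an assembled contig, covered in most cases by several oligonucleotide probes, and its value was the median over its probes. To be ranked, a sequence needed at least 2 probes, each well above background on at least 50% of its spots on all 6 arrays. Ranking used the standard deviation (SD) of the log2 signal pooled within diet, which is the square root of the mean of the variance between the EOs pools and the variance between the control pools. Spread within a diet was therefore what chose the members. It is given as a description, with no test, and it supports no statement about the diet.

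Juvenile fish received a diet with 0.5% of a microencapsulated additive of synthetic garlic essential oil, carvacrol and thymol (EOs), or the same diet without it (control), for 65 days. Skin RNA of single fish was combined into 3 pools of 4 fish per diet, with 1 array per pool. The arrays were one-color, in which a single dye reports how much labelled RNA each probe has bound. The trial used triplicate tanks per diet, and the labels do not tie a pool to a tank. With 1 array per pool, differences between fish, tanks, pieces of skin and arrays cannot be told apart, and p-values measure only the spread between pools.

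Fish skin is a mucosal tissue, in which living epidermal cells and mucus-secreting cells lie directly against the water, over a dermis that holds scales, pigment cells, vessels and connective tissue. It also houses immune cells and takes part in the first defense against bacteria and parasites. The methods state that attached muscle was removed from the sampled skin. Such a section still mixes many cell types, and fewer cells of a type and less RNA per cell cannot be told apart in a pooled sample.

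The deposited files name sequences by clone or contig and do not pair them with genes. None of the 15156 names (0) was found in the reference gene table, so the members carry no gene names here, and the tissue could not be checked against its markers. Of the members, 108 (54.0%) were named as cDN clones, 57 (28.5%) as contigs numbered with the prefix Contig, 26 (13.0%) as contigs of the Seabream_2006-01-03 assembly, 6 as SCT clones and 3 as Mackenzie contigs. Among the ranked sequences, cDN clones made up 36.4%, Contig names 33.4% and Seabream_2006-01-03 contigs 26.5%. A total of 194 members had 3 probes, 5 had 4 and 1 had 2.

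The arrays themselves differed within a diet. Spots well above background made up 82.6% to 86.3% of all non-control spots on the EOs arrays and 68.6% to 85.9% on the control arrays. The 75th percentile of the log2 signal, which was subtracted from every value of its array, was 10.30, 10.42 and 10.48 for EOs pools 1, 2 and 3, and 9.92, 10.62 and 10.03 for control pools 1, 2 and 3. Control pools 1 and 2 were thus the dimmest and the brightest array of the series. They also lay on slides of a separate run of slide numbers from control pool 3 and the 3 EOs pools. No spot was saturated.

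Members differed between pools of 1 diet by several times the usual amount. Their pooled SD ran between 0.478 and 2.135 on the log2 scale, with a median of 0.637, where all ranked sequences had a median of 0.164. Between the EOs pools the SD had a median of 0.539 among members and of 0.113 among ranked sequences, and between the control pools of 0.682 and 0.171. In terms of fold, the highest and the lowest pool of a diet lay 2.06-fold apart at the median member in EOs and 2.49-fold apart in control, and at most 52.5-fold and 33.3-fold. A range above 2-fold was found within EOs in 102 members (51.0%, against 2.99% of the ranked sequences). Within control it was found in 144 (72.0%, against 5.48%), and within both diets in 49 (24.5%, against 1.14%). The rule ranks by spread and so favours such ranges.

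**Figure D1:**
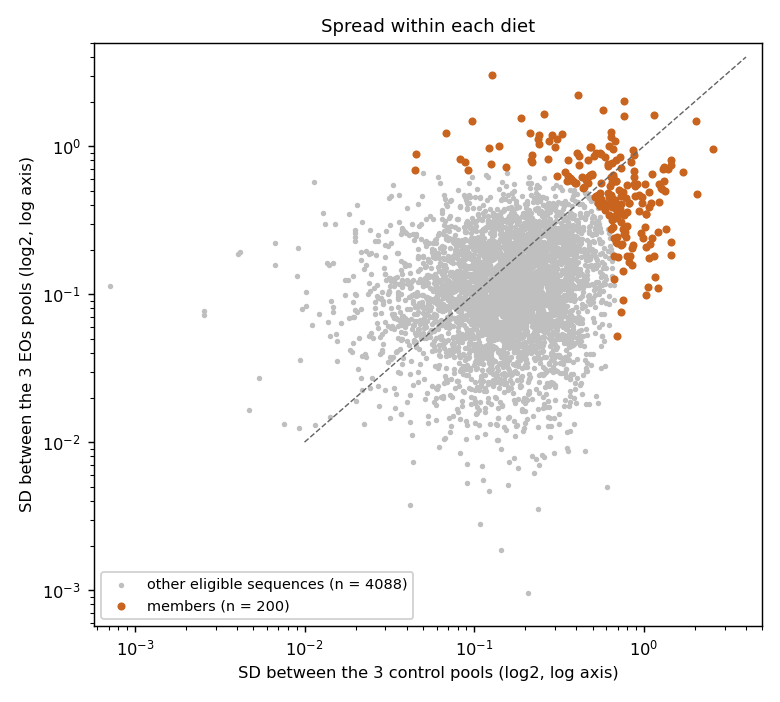
SD of the log2 signal between the 3 EOs pools (vertical) against that between the 3 control pools (horizontal), both on log axes, for the 200 members (orange) and the other 4088 ranked sequences (grey), with a dashed line where both are equal. Members lie along the upper and right edge of the cloud, 76 above the line with the larger SD in EOs and 124 below it with the larger SD in control.

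The spread of a member was often unequal between diets, and so was that of the other sequences. The SD was more than 2 times as large in EOs as in control in 37 members (18.5%, against 13.1% of the ranked sequences), and more than 2 times as large in control as in EOs in 69 (34.5%, against 37.0%). The SD was the larger in EOs in 76 members (38.0%), against 33.4% of the ranked sequences. The threshold itself fell in a dense part of the ranking, where order has little meaning. The last members inside were Contig1915, cDN11P0006M01.F.ab1 and Contig730, with SDs of 0.4796, 0.4789 and 0.4784, and the first sequences outside were cDN11P0001O15.F.ab1, cDN02P0003K10.F.ab1 and cDN09P0003P08.F.ab1, with 0.4780, 0.4780 and 0.4774.

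The member with the largest spread, Seabream_2006-01-03-CL3224Contig1, was set by a single pool. Its log2 signal relative to the 75th percentile of the array was -3.23, 2.48 and -2.05 in EOs pools 1, 2 and 3, and -2.31, -2.46 and -2.20 in control pools 1, 2 and 3. EOs pool 2 stood 4.53 above the next highest pool, a 23.2-fold gap, while the control pools covered a range of only 1.19-fold. In signal units the same sequence gave 134.1, 7657.1 and 344.9 in EOs pools 1, 2 and 3 and 195.1, 286.2 and 226.7 in control pools 1, 2 and 3. All 3 of its probes put EOs pool 2 highest, but by unequal gaps, of 4.51, 4.53 and 2.01 log2 over the next pool, the last of which is 4.03-fold.

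Contig1072, second in rank, moved mainly within control. It had values of 1.86, -0.02 and 0.66 in EOs pools 1, 2 and 3, and of -3.10, 1.95 and -1.10 in control pools 1, 2 and 3, so that control pool 1 was lowest and control pool 2 highest of all 6 pools. The control pools spanned 33.3-fold and the EOs pools 3.67-fold. Replicate spots of a single probe of this sequence differed by up to 3.06 log2 on an array. Its 3 probes gave control pool 3 as -0.56, -3.88 and -1.10.

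In Contig3215 probes and replicate spots lay close together. It had values of 1.31, 4.15 and 3.50 in EOs pools 1, 2 and 3, and of -0.52, 3.20 and 2.72 in control pools 1, 2 and 3. Pool 1 was low and pool 2 high in either diet, and the pools of a diet spanned 7.16-fold in EOs and 13.3-fold in control. The probes gave SDs between 1.76 and 1.85 with a lowest correlation between 2 of them of 1.00 after rounding, and no replicate spots lay more than 0.20 log2 apart. Over 6 arrays such a correlation is a description of how the probes of this sequence moved, since they share the same RNA and arrays.

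Among the next members, the spread of cDN02P0003A22.F.ab1 and Seabream_2006-01-03-CL2687Contig1 lay mainly in EOs. cDN02P0003A22.F.ab1 had values of -3.57, 0.75 and -0.55 in EOs pools 1, 2 and 3, and of -1.86, -2.40 and -2.67 in control pools 1, 2 and 3. Seabream_2006-01-03-CL2687Contig1 had -2.85, 1.00 and 0.14 in EOs pools 1, 2 and 3, and 0.76, -0.75 and 0.18 in control pools 1, 2 and 3. In both, EOs pool 1 was the lowest of all pools and EOs pool 2 the highest, with a range of 20.0-fold and 14.4-fold within EOs. In the second sequence EOs pool 1 alone fell outside, 2.10 log2 below every other pool.

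The spread of cDN04P0003K20.F.ab1 and cDN03P0004E19.F.ab1 lay mainly in control, and ran in opposite directions. cDN04P0003K20.F.ab1 had values of 0.82, -0.13 and 0.44 in EOs pools 1, 2 and 3, and of 1.87, -2.13 and 0.64 in control pools 1, 2 and 3, a 16.0-fold range within control with pool 1 highest. cDN03P0004E19.F.ab1 had -2.66, -1.56 and -1.45 in EOs pools 1, 2 and 3, and -3.37, -0.01 and -1.22 in control pools 1, 2 and 3, a 10.3-fold range within control with pool 1 lowest. Its probes differed in size, with SDs of 0.68, 1.36 and 1.49, and read -1.22, -0.94 and -3.31 in control pool 3. Control pools 1 and 2 were thus in opposite order in these sequences. The part of the arrays in this was not tested.

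The remaining members of the first 10 varied in both diets or again in EOs. Contig1570 was lowest in pool 2 of either diet, with values of -0.28, -3.42 and -1.11 in EOs pools 1, 2 and 3, and of -0.02, -2.31 and -0.94 in control pools 1, 2 and 3. Each of its probes was lowest there, but by unequal amounts, with SDs of 0.50, 1.41 and 1.33. Seabream_2006-01-03-CL923Contig1 was lowest in pool 1 of either diet, with -2.61, 0.40 and -0.16 in EOs pools 1, 2 and 3, and -0.96, 0.54 and 0.02 in control pools 1, 2 and 3. In cDN09P0001F08.F.ab1 the medians over probes were -4.54, -1.11 and -2.19 in EOs pools 1, 2 and 3, and -3.26, -4.35 and -3.50 in control pools 1, 2 and 3. EOs pool 2 was highest in every probe. The median was lowest in EOs pool 1, but single probes were lowest in control pool 1, 2 or 3. Their SDs were between 0.66 and 1.54. The labels do not say whether equal pool numbers pair the pools of the 2 diets. A pool 1 that is low in both was therefore read as a match of numbers only.

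**Figure D2:**
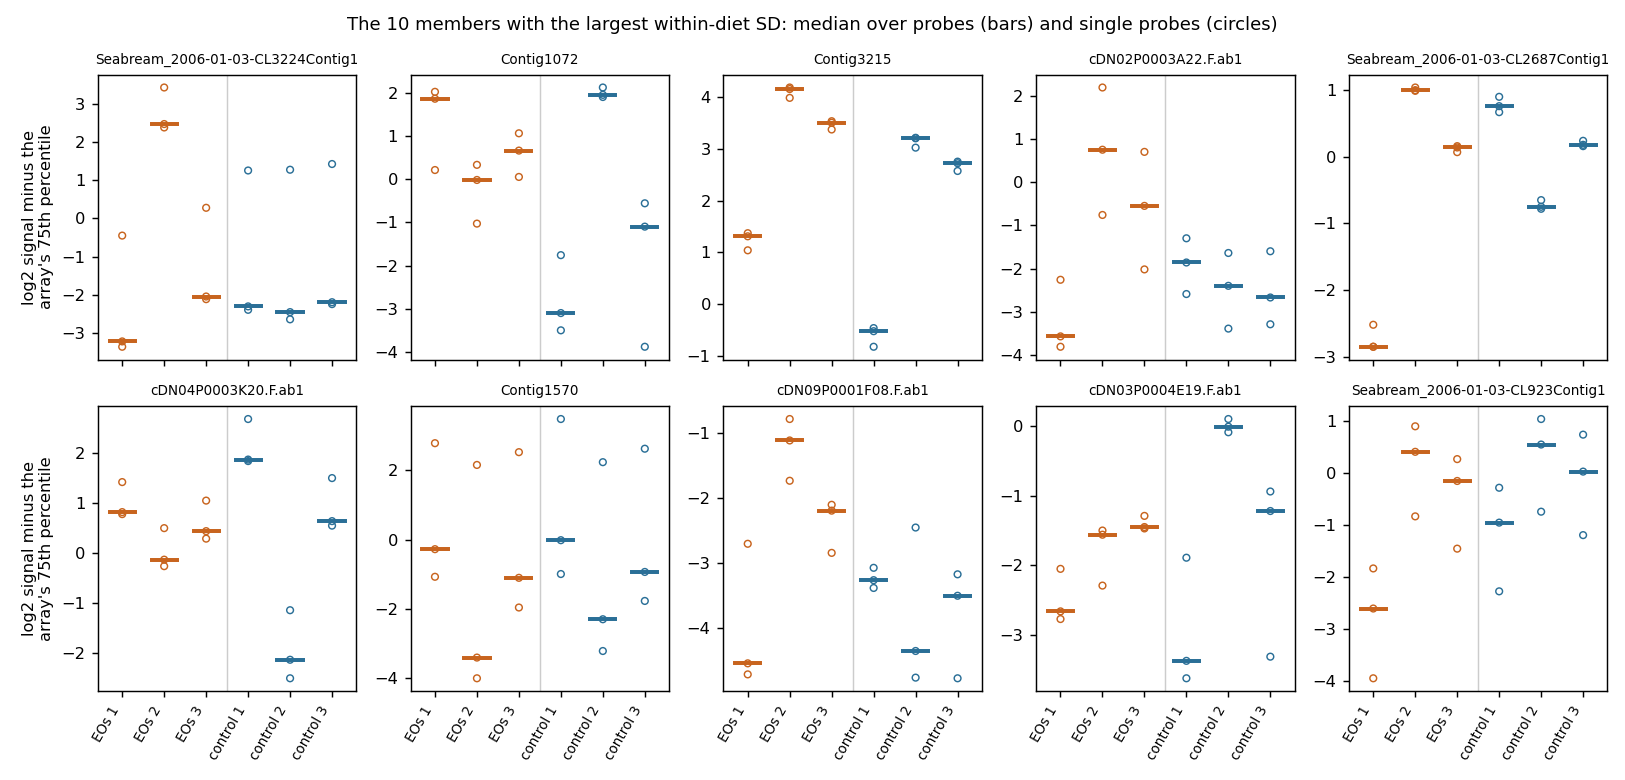
Log2 signal minus the array's 75th percentile (vertical) in each of the 6 pools (horizontal; EOs orange, control blue) for the 10 members with the largest pooled SD, with the median over probes as a bar and single probes as circles. Probes of Contig3215 and Seabream_2006-01-03-CL2687Contig1 lie close together, while those of Contig1072 differ by more than 3 log2 in control pool 3.

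In part of the list a single pool stood apart from all others. In 43 members 1 pool lay at least 1 log2 above or below the other 5. Among all 4288 ranked sequences, members included, it was also 43, so every such sequence was a member. A gap of this size brings a wide spread, by which the rule chose. Among the 43 members, EOs pool 2 was the lone high pool in 15 and the lone low pool in 3, and EOs pool 1 was the lone low pool in 8. Control pool 1 was the lone low pool in 7 and the lone high pool in 1, control pool 2 was the lone high pool in 5 and the lone low pool in 3, and control pool 3 was the lone low pool in 1. EOs pool 3 was never the lone pool.

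The 15 members with EOs pool 2 alone on top had gaps between 1.06 and 4.53 log2, or 2.08-fold to 23.2-fold, with a median gap of 1.30. Their control pools had a median SD of 0.259, against 0.682 over all members and 0.171 over the ranked sequences. In cDN14P0006D17.F.ab1 the values were -1.72, 1.09 and -1.46 in EOs pools 1, 2 and 3, and -1.54, -1.86 and -1.52 in control pools 1, 2 and 3. EOs pool 2 thus stood 5.87-fold above the next pool, and the other 5 pools overlapped between diets. The lowest correlation between any 2 probes of one of these 15 sequences was 0.54. The probes put all pools of both diets in one order in 4 of the 15. Only 1 of the 15, Contig3490, had probes on replicate spots, which lay at most 0.78 log2 apart, so that replicate spots bear on none of the others.

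**Figure D3:**
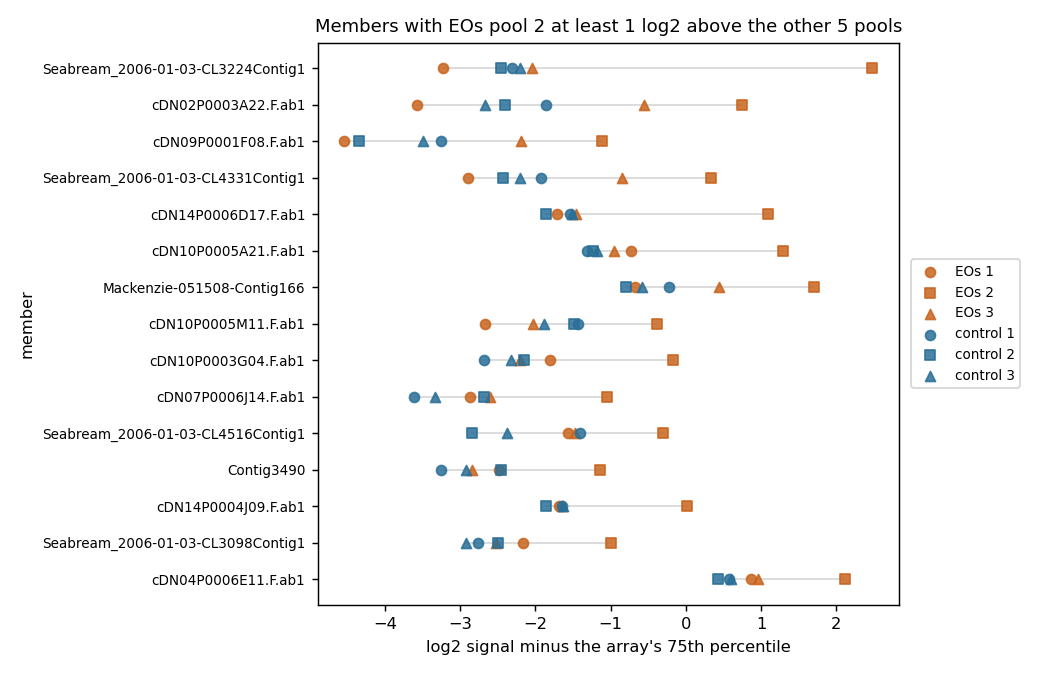
Log2 signal minus the array's 75th percentile (horizontal) in the 6 pools (EOs orange, control blue, marker shape by pool number) of the 15 members in which EOs pool 2 lay at least 1 log2 above all other pools (vertical, largest SD on top). The orange square stands 1.06 to 4.53 to the right of the next marker.

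In most members pools 1 and 2 of a diet lay at the ends and pool 3 between them. EOs pool 3 lay between the other EOs pools in 162 members (81.0%, against 62.8% of the ranked sequences), and control pool 3 between the other control pools in 171 (85.5%, against 63.7%). Control pool 2 was highest and control pool 1 lowest in 116 members (58.0%, against 27.5%), and the reverse held in 55 (27.5%, against 36.2%). In EOs, pool 2 was highest and pool 1 lowest in 92 members (46.0%, against 33.0%), and the reverse held in 70 (35.0%, against 29.8%). Of the 4 ways in which both diets can be ordered by pools 1 and 2, pool 1 above pool 2 in both diets was the least common, in 10 members (5.0%, against 24.1%), while the others held 63, 74 and 53.

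The common order within control, pool 2 above pool 3 above pool 1, was also the order of the arrays by their 75th percentile. The part of array brightness in this pattern was not tested. The order was counted again under other scalings of the arrays (median centring, quantile normalization, spike-in scaling and no scaling). It was also counted with normexp background and with the authors' log2 table, both of which kept the 75th percentile. Across these settings control pool 2 was highest and pool 1 lowest in 99 to 132 members, and the reverse held in 22 to 60. The same share among the ranked sequences moved far more. The rule chose members with a wide spread, whose pools a shift of a whole array reorders less easily. This contrast was therefore fixed in part by the rule, and no reading follows from it. Without scaling the order was found in 66.0% of the members and 68.0% of the ranked sequences, so that the members did not exceed them, and with median centring in 99 of the 200 members and 445 of the 4288 ranked sequences. With spike-in scaling the shares were 59.5% and 30.8%. In EOs the common order, pool 2 above pool 3 above pool 1, differed from the order of the arrays by their 75th percentile, which was pool 3, pool 2, pool 1.

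The members were grouped by the correlation of their deviations from the diet means (average linkage). At most 5 groups were allowed, so their number is a setting and not a result. Group 1 (69 members) had median deviations of 0.44, -0.34 and -0.06 log2 in EOs pools 1, 2 and 3, and of -0.62, 0.81 and -0.24 in control pools 1, 2 and 3. Group 2 (60 members) had -0.62, 0.77 and -0.03 in EOs pools 1, 2 and 3, and 0.38, -0.41 and 0.04 in control pools 1, 2 and 3. Group 3 (55 members) had -0.46, 0.30 and 0.13 in EOs pools 1, 2 and 3, and -0.78, 0.66 and 0.15 in control pools 1, 2 and 3. Groups 1 and 3 thus shared the order of the control pools and were opposite in EOs, and group 2 was close to a mirror image of group 1.

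Group 4 held 15 members, with control pool 1 high and control pool 2 low, at median deviations of 0.22, -0.26 and 0.05 in EOs pools 1, 2 and 3, and of 0.76, -0.78 and 0.08 in control pools 1, 2 and 3. Seabream_2006-01-03-CL2385Contig1 of this group had values of 1.11, 1.54 and 1.44 in EOs pools 1, 2 and 3, and of 2.59, -0.27 and 1.55 in control pools 1, 2 and 3. Its EOs pools covered 1.35-fold and its control pools 7.26-fold, and its probes gave SDs between 1.03 and 1.04. The fifth group was a single sequence, Contig3333, in which the median over probes was highest in pool 3 among the EOs pools. Its probes did not move together. A probe with -2.36, -1.91 and -1.19 in EOs pools 1, 2 and 3 was highest in pool 3. Another, with -3.40, -4.84 and -4.30, was highest in pool 1, and the remaining probe had an SD of only 0.08.

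**Figure D4:**
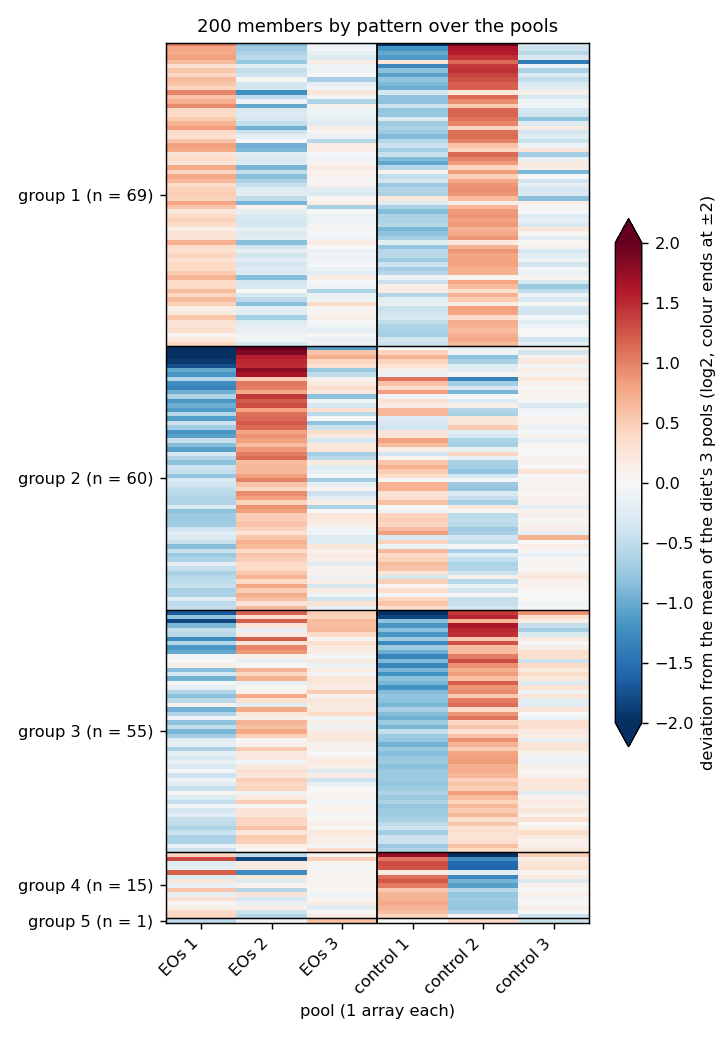
Deviation of each of the 200 members (rows, in 5 groups by pattern and by rank within a group) from the mean of its diet's 3 pools (log2; red above, blue below, colour ends at 2 in either direction) in the EOs and the control pools (columns). Pool 3 of either diet is paler in most rows, with a median absolute deviation of 0.14 in EOs and 0.15 in control, though single members reach 1.12 and 1.41, groups 1 and 3 share blue in control pool 1 and red in control pool 2, and group 2 shows blue in EOs pool 1 and red in EOs pool 2.

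With 3 pools per diet, deviations from the diet means have 4 dimensions. The first 2 principal components carried 53.7% and 36.9% of the members' variation. They carried 53.6% and 34.3% of that of all ranked sequences, members included. The split was thus much the same in both, and it is read as no trait of the members. The ranked sequences outside the members were not examined on their own. In cDN08P0002D05.F.ab1 of group 1 the values were 0.75, -0.73 and -0.09 in EOs pools 1, 2 and 3, and -2.05, 0.77 and -1.27 in control pools 1, 2 and 3. Control pool 1 was its lowest pool, and control pool 2 and EOs pool 1 were its highest. Its probes disagreed on control pool 2, where they read 1.53, -1.67 and 0.77.

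How far the separate probes of a sequence followed each other was not used for the choice, apart from the median taken over them. In 73 members (36.5%) all probes put the pools in one order in both diets, against 13.0% of the ranked sequences. The lowest correlation between 2 probes of a sequence was above 0.9 in 93 members (46.5%, against 15.7%) and below 0 in 17 (8.5%, against 28.3%). Because the rule took sequences whose probe median varied, these shares are descriptions. In 129 members every probe reached the SD of the last member by itself, and in 11 at least 1 probe was under the median SD of the ranked sequences.

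A few members, chosen after their values were seen, rested on probes that did not move together. In cDN01P0003H21.F.ab1 the probe SDs were between 0.32 and 2.68, and the widest probe read 4.32 in EOs pool 2 where the other 2 read -1.62 and -1.74. In Contig3438 they were between 0.03 and 0.75. In cDN12P0003L19.F.ab1, 2 probes correlated at -0.93 over the 6 arrays. The value of these sequences was thus a median over probes with unlike patterns. cDN03P0004H03.F.ab1, 15th in rank, also belonged here, with probe SDs between 0.22 and 1.11 and a lowest correlation of -0.41.

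Replicate spots, which repeat a probe on the same array, lay further apart in the members than over all ranked sequences, members included. The rule averaged the spots of a probe, so a discordant pair on an array can itself raise the SD that chose the members. The values below are therefore descriptions. Spots of the members' probes differed by 0.091 log2 at the median and by 1.032 at the 95th percentile, against 0.072 and 0.306 for all ranked sequences. Of the 49 members with such probes, 19 (38.8%) had a pair more than 1 log2 apart on some array, where 85 of 1142 ranked sequences (7.44%) had one. These discordant pairs numbered 18, 0 and 8 on the arrays of EOs pools 1, 2 and 3, and 5, 6 and 8 on those of control pools 1, 2 and 3, out of 876 pairs in all. Over all ranked sequences, members included, they numbered 32, 6 and 16 in EOs and 32, 19 and 16 in control, out of 20466 pairs. The members' 848 spots lay evenly over the array, with 200 to 218 in each quadrant.

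RNA spiked into the labelling reaction at fixed amounts gives the spread of labelling and hybridization, and the members, chosen for a large SD, had to lie above most of it. For 7 of the 10 spikes, those with a log2 signal of at least 9 on all arrays, the pooled SD within diet was between 0.042 and 0.151 before scaling, and between 0.188 and 0.291 after the 75th percentile was subtracted. The last member had an SD of 0.478. The other 3 spikes, which were dimmer, had SDs between 0.243 and 0.547 before scaling, the highest of which exceeded that of the last member, and between 0.168 and 0.423 after it. Over the 6 arrays the range of the 7 brighter spikes had a median of 0.43 log2 before the percentile was subtracted and of 0.72 after it, and was larger after it in 6 of the 7.

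Members were over-represented among dim sequences. When the ranked sequences were split into 4 equal parts of 1072 by their mean signal, the members numbered 91 in the dimmest part, 46 in the next, 31 in the one above and 32 in the brightest. The median SD of all ranked sequences in these parts was 0.211, 0.150, 0.136 and 0.167. Mean signal depends on the probe as well as on the amount of RNA, so this orders measurements and not transcripts. The part of dim signal in the members' spread was not tested.

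Among the brightest members, cDN02P0002F07.F.ab1 gave 44461.1, 57352.4 and 56685.7 signal units in EOs pools 1, 2 and 3, and 24145.4, 97959.2 and 47521.3 in control pools 1, 2 and 3. The EOs pools covered 1.19-fold and the control pools 2.49-fold after scaling, with a pooled SD of 0.482. Among the dimmest members, cDN01P0001J15.F.ab1 gave 115.2, 53.0 and 96.2 signal units in EOs pools 1, 2 and 3, and 68.5, 181.4 and 89.2 in control pools 1, 2 and 3. Its EOs pool 2 was the lowest of all pools, its pooled SD was 0.510, and its 3 probes ordered the pools alike.

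Since the comparison of diets divides by the spread that chose the members, few of them could pass it. With limma and Benjamini-Hochberg adjustment over the 11666 sequences tested, 17 (0.146%) differed between EOs and control at an adjusted p under 0.05, 6 of them (0.0514%) higher in EOs, and 0 of the 200 members did. At an unadjusted p under 0.05, 1338 of the sequences tested (11.5%) and 8 members were found. Of these members 2 were higher in EOs and 6 lower, where 7.41% and 4.05% of all sequences tested passed in these directions. When only the 4288 ranked sequences were tested, 543 of them (12.7%) and 14 members passed this threshold. Of these, 250 of the 543 and 4 of the 14 were higher in EOs. By the methods' t-test 2 members passed this unadjusted threshold, where 11.8% of the sequences tested did. None (0) of the members passed after adjustment, where 0.103% of the sequences tested did. No reading follows from the low counts, because the rule fixed them in part. With EOs pools 1, 2 or 3 left out, 12, 22 and 6 of the 200 members passed the unadjusted threshold, where 7.89%, 11.5% and 5.70% of the sequences tested did. With control pools 1, 2 or 3 left out, 19, 54 and 4 members passed it, the 54 being 27.0%, where 11.7%, 24.5% and 6.75% of the sequences tested did. The number of members after adjustment stayed at 0.

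Values of all EOs pools lay above those of all control pools in 4 members and below them in 3. This held for 11.5% and 6.97% of the sequences tested, and for 9.05% and 9.75% of the ranked sequences. The difference of the diet means had a median of 0.05 log2 over the members and ran between -2.10 and 1.58, and without its sign it had a median of 0.331, against 0.134 over the ranked sequences. A difference above 1 log2 in either direction was found in 18 members and in 31 ranked sequences, members included. The size of such a difference grows with the spread that chose the members.

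**Figure D5:**
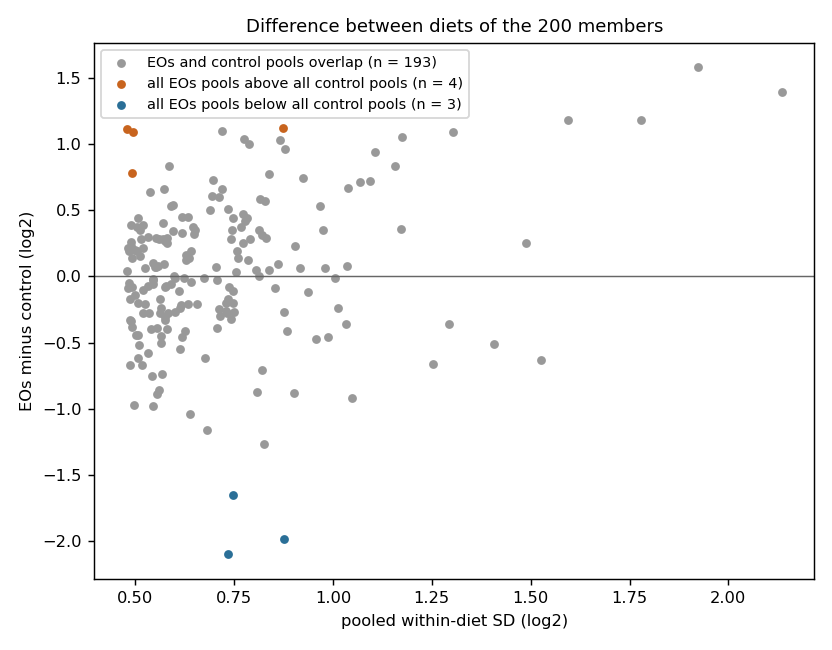
Difference of the diet means, EOs minus control (log2, vertical), against the pooled SD within diet (log2, horizontal) for the 200 members, with those whose pools do not overlap in orange (4 higher in EOs) and blue (3 lower in EOs). The 2 lowest points lie at -2.10 and -1.98 with SDs under 0.9, and every member with an SD above 1 has overlapping pools.

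The largest differences without overlap were toward lower values in EOs. cDN11P0005O20.F.ab1 had values of 2.07, 4.04 and 3.30 in EOs pools 1, 2 and 3, and of 5.49, 4.91 and 5.32 in control pools 1, 2 and 3. The difference was -2.10 ± 0.50 log2 (SE), with an adjusted p of 0.238 by limma, the lowest adjusted p of any member. All 4 of its probes behaved alike, with SDs between 0.73 and 0.76. cDN06P0005A07.F.ab1 had values of -2.22, -0.51 and -1.05 in EOs pools 1, 2 and 3, and of 1.55, -0.19 and 0.81 in control pools 1, 2 and 3. The difference was -1.98 ± 0.59 log2, with an adjusted p of 0.308 by limma, and the highest EOs pool lay close to the lowest control pool.

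Of the members with all EOs pools above all control pools, cDN10P0005A21.F.ab1 had values of -0.73, 1.29 and -0.95 in EOs pools 1, 2 and 3, and of -1.32, -1.24 and -1.18 in control pools 1, 2 and 3. The difference was 1.12 ± 0.59 log2 (SE), with an adjusted p of 0.542 by limma. Most of it came from EOs pool 2, which stood 2.02 above the next pool, and the control pools covered 1.10-fold. cDN11P0006M01.F.ab1, next to last in rank, had values of -1.44, -2.43 and -1.69 in EOs pools 1, 2 and 3, and of -2.53, -2.96 and -3.40 in control pools 1, 2 and 3. The difference was 1.11 ± 0.33 log2, with an adjusted p of 0.308 by limma, and its probes did not move together, with a lowest correlation of -0.32.

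The comparison was repeated on single probes, where 20 of 23596 probes tested (0.0848%) and 0 of the members' 604 probes passed after adjustment with limma. In 5 members every probe had an unadjusted p under 0.05 in one direction, as had 181 (3.49%) of the 5180 sequences with 2 or more probes, all tested.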

How the data were processed

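Skin RNA of 3 EOs pools and 3 control pools was measured on 6 one-color Agilent arrays. The authors deposited spot intensities from Feature Extraction, background-subtracted and detrended within the array but not scaled between arrays (processed signal), and a table of log2 values, which equalled the log2 background-subtracted signal within 5.0e-09 and was used as an alternative. The file headers name another version of that software than the methods do. With 6 arrays, their number limits the precision.

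Log2 processed signals of non-control spots (43803 of 45220) were averaged per probe (28793), each array's 75th percentile was taken off, and the median over probes gave 15156 sequences. A sequence was tested if each probe had at least 50% of its spots well above background on all arrays of a diet. Diets were compared with limma 3.58.1 (lmFit, eBayes, two-sided) in R 4.3.3, EOs minus control, after being tested on simulated data. Other steps used Python 3.11.15, pandas 2.3.3 and matplotlib 3.10.9. The methods' t-test, other scalings, normexp (offset 50, on the median spot signal, as the files hold no mean), probe summaries, filters and left-out pools were tried. Spike-in scaling, no scaling and the slide run were added after seeing the data.

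The members and lists were chosen with earlier results of these data known. Named members were the 10 with the largest SD, the largest differences without overlap (2 shown each way, as no gene names exist), the widest of each pattern group, the brightest, the dimmest and those at the threshold. Marker lists could not be applied without gene names.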

Additional observations from a re-analysis of the deposited data

How the results depend on the processing

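Of the 200 members, 154 to 198 stayed among the 200 most variable under the other scalings, background, probe summary, flagged spots left out or the authors' log2 table, and 154 to 175 with 1 pool left out (154 without control pool 2). In 129 every probe reached the SD of the last member. The median SD was between 0.544 and 0.803 across these settings and between 0.520 and 0.782 with a pool left out. No member (0) was called after adjustment under any setting that compared more than 1 control pool with EOs.

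Members at an unadjusted p under 0.05 numbered 8, against 14 with normexp, 14 when only ranked sequences were tested, 2 by the methods' t-test, 3 with the slide run as a block and 21 within the slide run that held both diets, and 4 to 54 with a pool left out. Of all sequences tested, 17 were called, against 29 with quantile normalization, 11 with median centring, 26 with normexp and 11 without scaling. With the slide run as a block 0 were called, and the difference between diets then rested on control pool 3 as the only control. Control pools 1 and 2 lay in another slide run than all EOs pools, so diet and slide run were partly confounded. The number called was 9 with spike-in scaling, 31 with trended and robust limma and 2 among ranked sequences. With a pool left out it was 0 to 25, and 0 without any 1 EOs pool or control pool 3. At an unadjusted p under 0.05 all sequences tested numbered 1338, against 721 without scaling, 391 with spike-in scaling, 543 among ranked sequences, 553 with the slide run as a block and 665 to 2863 with a pool left out (2863 without control pool 2, 787 without control pool 3, 665 without EOs pool 3). The cause was not tested, except that fewer sequences were tested among ranked ones.

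With the pool number as a replicate block, 15 members and 1075 sequences had an unadjusted p under 0.05, and 0 sequences were called. The numbers were not taken to pair the pools, since the labels do not say that they do. Deviations of same-numbered pools correlated at -0.11, -0.23 and -0.03, and those of differently numbered pools at -0.26 to 0.30. Deviations cancel out within a diet, so these correlations are tied together and cannot settle the pairing. Of the 1338 sequences, 865 were higher in EOs, against 665 of 721 without scaling, 538 of 1018 with median centring, 627 of 1386 with normexp and 1247 of 1564 in the authors' table. All sequences tested shifted by 0.05 log2 at the median, and by 0.27 without scaling. When only ranked sequences were tested, 250 of 543 were higher in EOs and the median shift was -0.01. The 126 alternative values of the 6 differences chosen for naming, not all shown above, kept their direction, but their size moved. That of cDN10P0005A21.F.ab1 was 0.41 without EOs pool 2 and 1.53 without EOs pool 3. The named SDs, which have no direction, also moved, as in cDN09P0001F08.F.ab1 from 0.92 with normexp to 1.48 with quantile normalization. The 6 arrays lay on 6 different slides and were scanned on one day, so neither slide nor scan date could be used as a block.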
